A study of Mus musculus with 25 samples.

Results

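The spliceosome genes of mouse embryos at the two-cell stage were examined in cloned embryos, in cloned embryos given agents that act on chromatin, and in fertilized embryos. The genes were chosen by name: protein-coding genes whose symbols start with Sf3a, Sf3b, Srsf, U2af, Lsm, Snrp or Prpf followed by a number or, for Snrp, also a letter, without Snrpn, and averaging 1 read or more over the 25 libraries. This gave 60 genes, all on autosomes. By the roles given below some of them, such as Lsm10 and Lsm14a, act outside the spliceosome, and they count in all totals. The count table held 55375 genes, and the 25794 on autosomes that reached the same average were the genes tested. A further 3 rows carried a matching symbol but were pseudogenes and were left out, among them Snrpert, a pseudogene with a mean of 218 reads.

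Each library came from a pool of 5 to 10 embryos collected 28 to 29 h after fertilization or activation, and polyadenylated RNA was amplified and sequenced. IVF embryos, from C57BL/6N oocytes and DBA2 sperm, made up 4 libraries. All other embryos were made by somatic cell nuclear transfer (SCNT), in which a cumulus cell nucleus of a BDF1 mouse replaces the chromosomes of a BDF1 oocyte. One series was activated in cytochalasin B: 2 control libraries (SCNT-CB), 2 from embryos injected with 10 pL of Kdm3a mRNA at 1500 ng/µL (Kdm3a), and 2 injected with Kdm4d mRNA in the same way (Kdm4d). KDM3A and KDM4D are demethylases of lysine 9 of histone H3. The other series was activated in latrunculin A: 2 control libraries (CC-cont), 2 with 25 nM of the histone deacetylase inhibitor trichostatin A for 8 h (TSA, CC-T), 3 with 1 µM of the G9a inhibitor RK-701 for 24 h (CC-G(RK-701)), 2 with the G9a inhibitor A366 (CC-G(A366)), and 2 each with TSA and RK-701, TSA and A366, or TSA and the G9a inhibitor UNC0638 (CC-TG), each at the doses and times given. G9a is a methyltransferase that adds methyl groups to lysine 9 of histone H3. The oocyte strain differs between IVF and SCNT embryos, so strain and the method of making the embryo cannot be told apart. Fewer molecules of an mRNA per embryo and more of the other mRNAs cannot be told apart either, since each library is scaled to itself.

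The spliceosome removes introns from precursor mRNAs. It is built from small nuclear ribonucleoproteins, each an RNA (U1, U2, U4, U5 or U6) with its proteins: a ring of Sm proteins sits on U1, U2, U4 and U5, and a ring of LSm proteins on U6. U1 recognizes the start of the intron, U2AF and the SF3A and SF3B complexes of U2 recognize its end and branch point, SR proteins mark exons, and PRPF proteins assemble and drive the catalytic steps. The embryo starts with splicing factor mRNAs stored in the oocyte and makes its own from the major wave of zygotic genome activation, which takes place at the two-cell stage in the mouse.

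Called higher in both demethylase groups and in all 3 co-treatments, in the comparisons given further on, were 6 members: Snrpa1, Snrpe, Snrpd1, Prpf18, Sf3b6 and Srsf5. The sequences just upstream of 3 of them are shown as examples. For Snrpa1, whose promoter held no match to the motif marked here, the RefSeq start lies inside the gene as annotated for the count table. None is printed for it, nor for Snrpd1 and Prpf18. Of the 60 genes, 50 had a promoter in the RefSeq table used here, which is on GRCm38.p6, the assembly of the count table. Sequences run 5′ to 3′ on the strand of the gene and stop before the first exon base of the count table's annotation. This cuts the stretches of Snrpe and Sf3b6 to 239 and 186 bases. Capitals mark CCGGAAG or its reverse complement, the core of the sites bound by ETS family factors. The stretches are chr1:133610292-133610530 (minus strand) for Snrpe, chr12:4817358-4817543 (plus strand) for Sf3b6 and chr12:80945249-80945498 (plus strand) for Srsf5.
Snrpe: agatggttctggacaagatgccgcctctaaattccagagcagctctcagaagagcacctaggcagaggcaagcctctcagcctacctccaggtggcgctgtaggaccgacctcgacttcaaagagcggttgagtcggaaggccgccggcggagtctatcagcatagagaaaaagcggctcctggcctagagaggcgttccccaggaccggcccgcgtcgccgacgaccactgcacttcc
Sf3b6: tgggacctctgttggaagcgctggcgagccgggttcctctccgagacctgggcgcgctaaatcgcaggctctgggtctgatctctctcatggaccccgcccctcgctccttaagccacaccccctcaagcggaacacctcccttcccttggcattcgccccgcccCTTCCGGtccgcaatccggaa
Srsf5: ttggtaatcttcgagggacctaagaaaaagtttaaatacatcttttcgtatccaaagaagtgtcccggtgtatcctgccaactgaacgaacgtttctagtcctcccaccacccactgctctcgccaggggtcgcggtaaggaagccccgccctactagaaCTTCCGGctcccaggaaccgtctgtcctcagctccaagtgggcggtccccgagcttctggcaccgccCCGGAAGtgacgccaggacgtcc
The capitals stand once before Sf3b6, with their first base 85 bases before the RefSeq start, and appear at 90 and 23 bases before the start of Srsf5. Within 250 bases upstream on either strand, CCGGAAG was in 17 of the 50 promoters (34.0%), in 7.83% of the 27025 genes with a promoter in the table and in 12.9% of the 12541 protein-coding genes tested. None of the other 4 motifs searched stood apart to that extent: CCAAT was in 38.0% of the members and 39.6% of the protein-coding genes tested, CACGTG in 8.0% and 8.93%, TATAAA in 8.0% and 9.83%, and the NRF1 palindrome in 2.0% and 1.56%. A match is a description of these letters, with no evidence here of binding. Among the 31 matched genes called higher in none of the demethylase or co-treatment comparisons, 9 held CCGGAAG, and among the 4 called higher in all of them, 2 did. Of the genes called higher in 1, 2, 3 and 4 of them, 1 of 3, 2 of 5, 3 of 5 and 0 of 2 held it. These groups are too small to show a trend.

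The libraries held 6662727 to 21188688 reads on genes, with a median of 13994840. The spliceosome genes were deeply read: their mean read counts ran from 2.04 to 14551 with a median of 1278, against a median of 27.8 over all genes tested. A change of the same size is called more readily in a deeply read gene. The shares of all genes given below are not matched for read depth, so a larger share among the members does not by itself show enrichment. Injected mRNAs checked the labels: Kdm3a stood at 3116 to 3466 scaled counts (CPM) in the Kdm3a libraries and at 109 to 266 elsewhere, and Kdm4d at 12522 to 18521 CPM in the Kdm4d libraries and at no more than 5.08 elsewhere. All 7 markers of the two-cell embryo were read, with summed levels of 251 to 1376 CPM per library. Summed markers of cumulus and granulosa cells (12 genes) ran from 35.9 to 75.3 CPM over the libraries, with 40.3 to 51.1 in IVF, 36.8 to 45.8 in CC-cont, 54.9 to 58.1 in CC-G(A366) and 60.3 to 75.3 in CC-T, the highest. Amhr2, at 23.9 to 64.6 CPM in every library, made up most of the sum and Tnfaip6 reached 11.3 CPM, while Ptx3, Amh and Fshr were at or near 0.

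By level per length, in TPM (reads divided by exon length and scaled to a common total) averaged over the 25 libraries, the median gene stood at 107, 31 genes exceeded 100 and 7 were under 10. Srsf5, an SR protein that binds exonic splicing enhancers, was the highest at 1184 TPM. It was followed by Snrpc, a U1 protein, at 782, Sf3b6, the SF3B subunit that touches the branch point adenosine, at 686, the Sm protein gene Snrpe at 632 and Lsm8, the subunit that sets the U6 ring apart from the cytoplasmic decay ring, at 607. At the low end stood U2af1l4 at 0.36, Srsf12 at 0.42 and Prpf40b at 0.86 TPM. For 3 genes over 50% of the exon bases lay in another gene's exons, where read pairs were not assigned: Snrpf, U2af1l4 and Srsf4. Their levels are therefore understated.

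The summed level of the 60 genes overlapped between the IVF embryos and both SCNT controls, and was higher in 5 of the treated groups. It was 9246 ± 388 CPM in IVF (SD, n = 4), with single libraries at 8827 to 9747. In SCNT-CB the 2 libraries were at 8148 and 9509, and in CC-cont at 8917 and 7668. Kdm3a libraries stood at 12326 and 12649 and Kdm4d libraries at 11298 and 11677, with no overlap with any control or IVF library. Of the latrunculin A series, CC-T (8720 and 9678), CC-G(A366) (9133 and 9137) and CC-G(RK-701) (7420 to 8555) stayed within or below that range. All 6 co-treated libraries lay higher, from 11297 to 12482. As a plain share of the reads on genes, which needs no further scaling, the 60 genes took 0.846% to 0.910% in IVF, 0.889% to 1.00% in the SCNT controls, 1.03% to 1.12% after the demethylases, 1.05% to 1.15% in the co-treatments, 0.941% and 1.02% with TSA alone, 0.986% and 1.01% with A366 alone and 0.819% to 0.938% with RK-701 alone. On that measure the Kdm4d libraries, at 1.03% and 1.05%, lay just above the highest CC-T library. Both measures are weighted to the genes read most. By the geometric mean of the members' CPM, Kdm3a libraries were at 71.2 and 74.9 and Kdm4d libraries at 75.8 and 76.9. IVF and control libraries were at 60.5 to 68.8, CC-T at 67.0 and 72.5 and the co-treatments at 78.7 to 87.4, so Kdm3a and CC-T overlapped.

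**Figure D1:**
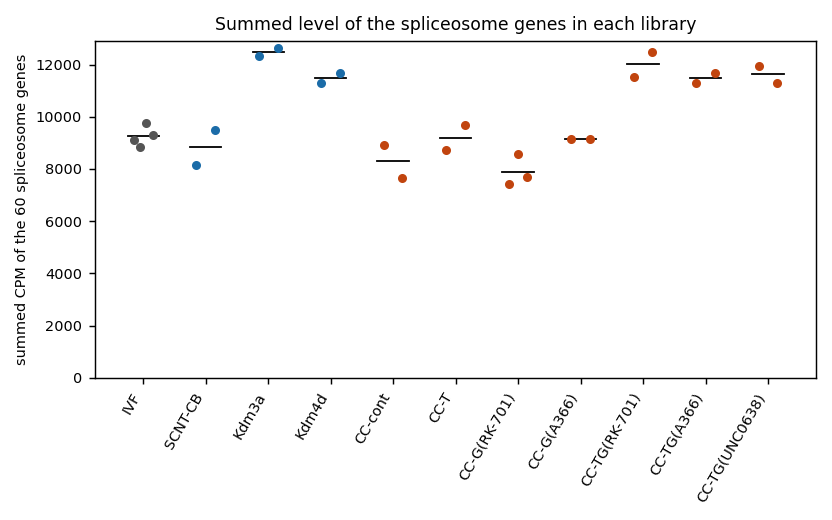
Summed CPM of the 60 spliceosome genes in each library (points) and the mean of each group (black lines), for IVF (grey), the cytochalasin B series (blue) and the latrunculin A series (orange). The Kdm3a, Kdm4d and 3 CC-TG groups lie between 11297 and 12649, above every IVF, control, CC-T and CC-G library.

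In SCNT embryos against IVF embryos, the question was which spliceosome genes start out at another level in clones. Of the 60 genes, 11 were called higher and 13 lower in SCNT-CB (edgeR's quasi-likelihood test, Benjamini-Hochberg adjusted p under 0.05 over all genes tested), where 21.3% of all genes tested were called (10.8% higher and 10.5% lower). In CC-cont 9 were higher and 12 lower, against 21.6% of all genes (11.5% higher and 10% lower). Both controls are compared with the same IVF libraries. The members' median log2 fold change was -0.07 in SCNT-CB and -0.05 in CC-cont, against 0.01 and 0.04 over all genes, so the members moved in both directions. With a fold over 2 also required, 11 and 6 members were called, against 15% and 15.3% of all genes. Against one another the controls had no member called by edgeR, with 7 at an unadjusted p under 0.05 and 0 called by DESeq2, where 0.0116% of all genes were called (0.00388% higher and 0.00775% lower in CC-cont).

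The genes lower in clones came mostly from the Sm ring, U2 and a few assembly factors. Snrpe, a protein of the Sm ring, was read at 320, 355, 432 and 366.1 CPM in IVF, 184 and 251 in SCNT-CB and 225 and 202 in CC-cont, so that every clone library lay below every IVF library. Its log2 fold change was -0.76 ± 0.16 (SE; edgeR adjusted p = 0.0008) in SCNT-CB and -0.79 ± 0.16 (adjusted p = 0.00058) in CC-cont. Snrpg and Snrpd1 of the same ring were also called lower in both controls, at -0.73 and -0.81 for Snrpg and -0.53 and -0.49 for Snrpd1. Together 4 of the 7 Sm genes were called lower in SCNT-CB and 3 in CC-cont.

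Snrpa1, the U2 protein that pairs with Snrpb2 on the U2 RNA, stood at 255, 190, 250 and 247 CPM in IVF, 125 and 159 in SCNT-CB and 122 and 119 in CC-cont. The IVF library at 190 is far from the other 3, and yet above all 4 clone libraries. The log2 fold changes were -0.73 ± 0.19 (edgeR adjusted p = 0.0052) and -0.97 ± 0.19 (adjusted p = 0.00042). Sf3a1, the largest SF3A subunit, fell by 1.62 and 0.99 on the log2 scale, and Sf3b4, which contacts RNA near the branch point, fell by 1.23 and 0.93. Prpf38a, a factor needed to activate the assembled spliceosome, was read at 502 to 667 CPM in IVF, 212 and 330 in SCNT-CB and 322 and 171 in CC-cont. Prpf18, which acts in the second catalytic step, fell from 95.4 to 101 CPM in IVF to 47.3 and 62.1 in SCNT-CB and to 76.4 and 48.8 in CC-cont.

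Some of the LSm genes outside the U6 and decay rings were also lower. Lsm10, a protein of the U7 particle that cuts histone mRNAs, was read at 124, 128, 121 and 122 CPM in IVF and at 42.7, 62.3, 64.5 and 39.2 in the 4 control clone libraries. Lsm14a, a protein of stored and repressed mRNAs, was called lower in both, at -0.51 and -0.65 on the log2 scale. Its relative Lsm14b was lower in SCNT-CB (-1.11 ± 0.37, edgeR adjusted p = 0.031). Lsm11 and Lsm12 were not called in either control. Group means of Lsm11 were 7.02 CPM in IVF, 7.05 in SCNT-CB and 8.22 in CC-cont, and those of Lsm12 were 69.6, 66.4 and 84.7.

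On the other side, Lsm3 had the largest difference of the members called, in both controls. This subunit of the U6 ring was at 13.0, 13.4, 17.1 and 15.7 CPM in IVF, 96 and 114 in SCNT-CB and 102 and 54.2 in CC-cont. The log2 fold changes were 2.82 ± 0.22 (edgeR adjusted p = 4.6e-10) and 2.40 ± 0.22 (adjusted p = 1.1e-08). Every one of the 21 clone libraries of all treatments exceeded all 4 IVF libraries. Part of the Lsm3 exon sequence, 23.4%, is shared with the overlapping gene AC161456.1, and read pairs there were not assigned to either. Srsf2, an SR protein also known as SC35, was at 113 to 164 CPM in IVF and at 284 to 335 in the 4 control libraries, with log2 fold changes of 1.22 and 1.11. Of its exon bases, 13.8% lie in Mfsd11, on the opposite strand, and the counting used no strand.

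Among the PRPF genes, Prpf4b, a kinase of splicing factors, and Prpf38b were higher by 1.14 and 1.17 on the log2 scale in SCNT-CB and by 0.99 and 1.05 in CC-cont. Prpf8, the scaffold protein at the catalytic centre, was read at 44.8 to 49.2 CPM in IVF and at 62.5 to 88.7 in the 4 control libraries (0.57 ± 0.16 and 0.81 ± 0.16). Srsf7 was called in SCNT-CB alone of the controls (1.13 ± 0.22, edgeR adjusted p = 0.00046), with 647 and 885 CPM there, 628 and 312 in CC-cont and 294 to 395 in IVF. Without replicate 1 of SCNT-CB, 13 members were called against IVF in place of 24.

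**Figure D2:**
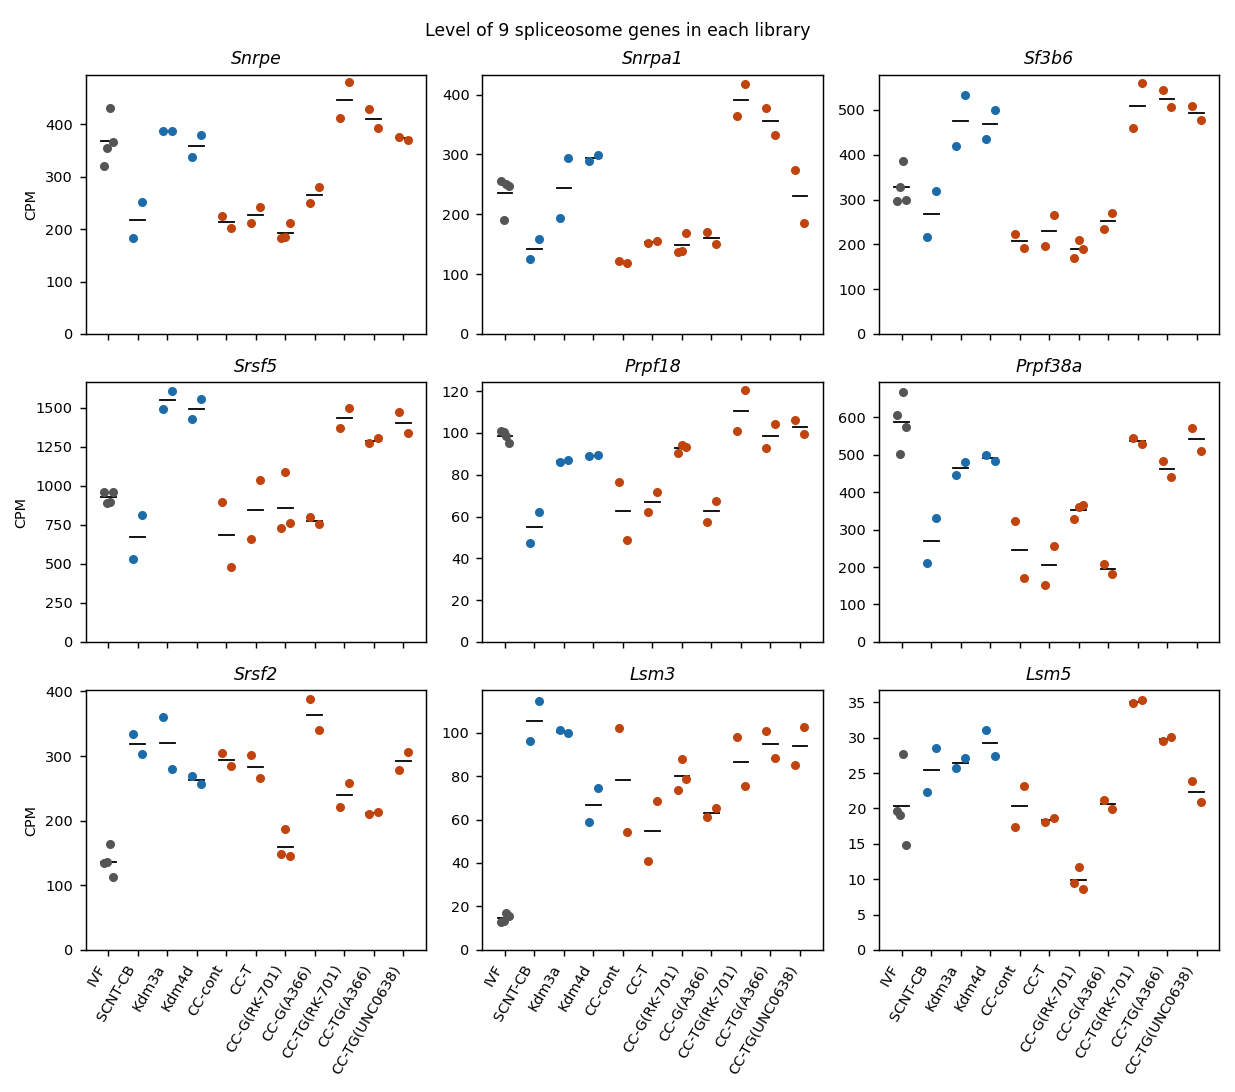
CPM of 9 spliceosome genes in each library (points) with the group mean (black lines), coloured as IVF (grey), cytochalasin B series (blue) and latrunculin A series (orange); each panel starts at 0. Snrpe, Snrpa1, Sf3b6, Prpf18 and Prpf38a are low in both controls, CC-T and CC-G(A366) and higher in the Kdm and CC-TG libraries, Lsm3 is low in IVF alone, and Lsm5 and Srsf2 are low in CC-G(RK-701) against the other clones.

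Injection of demethylase mRNA was compared with SCNT-CB, for which no mRNA injection is given. No group was injected with another mRNA, so injection itself and the demethylase cannot be told apart. With Kdm3a 11 members were called higher and 0 lower, and with Kdm4d 10 higher and 0 lower (edgeR), where 6.14% of all genes tested were called with Kdm3a (4.21% higher, 1.94% lower) and 5.15% with Kdm4d (3.88% higher, 1.27% lower). At an unadjusted p under 0.05, 23 members were higher and 3 lower with Kdm3a and 22 higher and 3 lower with Kdm4d. DESeq2 called 12 higher and 1 lower, and 13 higher and 2 lower. The members' median log2 fold change was 0.33 with Kdm3a and 0.31 with Kdm4d, against -0.04 over all genes in both. With a fold over 2 also required, 1 and 3 members were called, against 4.17% and 3.14% of all genes, so most of the called changes were smaller than 2-fold. Both comparisons share the 2 SCNT-CB libraries. Every call was lost without replicate 1 of SCNT-CB, when 0 members were called with either mRNA and the medians were 0.16 and 0.22, whereas without replicate 2 the calls numbered 11 and 13.

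Srsf5 had the largest called change with either mRNA. It was read at 534 and 815 CPM in SCNT-CB, at 1496 and 1606 with Kdm3a and at 1427 and 1560 with Kdm4d. All 4 injected libraries lay above both controls and above the 4 IVF libraries, which spanned 893 to 964. The log2 fold change was 1.20 ± 0.24 (edgeR adjusted p = 0.0029) with Kdm3a and 1.15 ± 0.24 (adjusted p = 0.0057) with Kdm4d. Srsf1, the SR protein also known as ASF/SF2, rose from 375 and 418 CPM to 680 and 737 with Kdm3a and to 668 and 609 with Kdm4d (0.84 ± 0.19 and 0.69 ± 0.19). The other 9 SR genes were not called in either comparison.

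Of the Sm ring, Snrpe was read at 387 and 386 CPM with Kdm3a and 338 and 379 with Kdm4d, against 184 and 251 in the control (0.83 ± 0.18, edgeR adjusted p = 0.0047, and 0.72 ± 0.18, adjusted p = 0.017). Snrpd1 rose from 186 and 215 CPM to 345 and 357 and to 332 and 329. Snrpd2 was called with Kdm3a (0.61 ± 0.19, adjusted p = 0.047 by edgeR). Snrpe and Snrpd1 had been lower in SCNT-CB than in IVF, and with either mRNA they were no longer called different from IVF.

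Of the U2 proteins, Snrpa1 rose to 195 and 295 CPM with Kdm3a and to 289 and 300 with Kdm4d (0.78 ± 0.21 and 1.05 ± 0.21), and Sf3b6 from 217 and 319 CPM to 420 and 533 and to 435 and 501 (0.83 ± 0.20 and 0.80 ± 0.20). Sf3a1 was called with Kdm4d (1.00 ± 0.27, edgeR adjusted p = 0.028), from 23.0 and 32.2 CPM to 52.5 and 58.3, still below the 72.2 to 106 of IVF. Prpf31, a protein of the U4/U6 particle, rose from 25.2 and 24.4 CPM to 40.3 and 57.3 and to 46.6 and 45.0. Prpf18 rose from 47.3 and 62.1 CPM to 86.3 and 87.1 and to 88.9 and 89.5. No LSm gene was called in either comparison, and no U2AF gene.

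Each inhibitor given alone was compared with CC-cont. TSA alone gave 0 member calls (edgeR; 4 members, 2 in each direction, at an unadjusted p under 0.05; 1 higher by DESeq2), where 0.372% of all genes were called (0.213% higher and 0.159% lower, and 0.318% with a fold over 2). A366 alone also gave 0 (3 higher at an unadjusted p under 0.05; 1 higher by DESeq2), where 0.132% were called (0.093% higher and 0.0388% lower, and 0.12% with a fold over 2). Of these, Srsf1 came nearest, at 704 and 595 CPM with TSA and 637 and 733 with A366 against 346 and 491 in CC-cont (edgeR adjusted p = 0.138 and 0.115). With replicate 2 of CC-cont left out, 6 members were called with TSA and 5 with A366.

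With RK-701 alone, members were lower. Of the 60, 10 were called lower and 0 higher (edgeR; 16 lower and 7 higher at an unadjusted p under 0.05; 13 lower and 4 higher by DESeq2), where 5.48% of all genes were called (2.8% lower and 2.68% higher). With a fold over 2 also required, 4 members were called, against 3.35% of all genes. The 10 were 5 of the 11 SR genes, 3 of the 8 genes of the U6 and decay rings, Lsm12 and Snrpf. The members' median log2 fold change was -0.15, against -0.01 over all genes. With replicate 2 of CC-cont left out 3 calls were left, and with replicate 1 left out there were 18.

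Srsf2 was read at 305 and 284 CPM in CC-cont and at 148, 187 and 145 with RK-701 (-0.88 ± 0.17, edgeR adjusted p = 0.0023), which is near the 113 to 164 CPM of IVF. Srsf1 fell from 346 and 491 CPM to 204, 289 and 242, below every other library of the study. Srsf10, a regulator that represses splicing when dephosphorylated, fell from 601 and 467 CPM to 401, 326 and 291. Log2 fold changes of Srsf9 and Srsf11 were -0.82 and -0.70.

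Lsm5, of the U6 and decay rings, fell from 17.4 and 23.2 CPM to 9.39, 11.8 and 8.67 (-1.03 ± 0.24, edgeR adjusted p = 0.013). Lsm2 of the same rings was at 33.9 and 63.5 CPM in CC-cont and at 24.2, 18.2 and 22.2 with RK-701. Lsm4 had the largest fall of all members, from 15.3 and 17.0 CPM to 4.04, 2.62 and 3.06 (-2.30 ± 0.45, adjusted p = 0.0032 by edgeR), on 31 to 65 reads in the treated libraries. Lsm4 also varied between the other groups, with 2.51 and 2.74 CPM in Kdm3a and 1.93 in one IVF library. Snrpf, for which only the unshared part of the gene is counted, had 17 to 52 reads in the treated libraries and fell by 2.09 on the log2 scale.

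Summed markers of the oocyte and of maternal mRNA (8 genes, all read) were 1950 to 2451 CPM in the RK-701 libraries, against 1045 to 1243 in CC-cont, 1494 to 1858 in IVF and 756 to 1676 in all other clones. Bmp15 was the largest part of that sum, at 970 to 1245 CPM with RK-701, 593 and 672 in CC-cont and 288 to 482 in IVF. It alone of the 8 lay above every IVF library. Zp3 (51.7 to 68.9 against 101 to 113 CPM) and Zar1 (2.54 to 5.53 against 9.06 to 11.4) lay below IVF, and the others overlapped with it. The part of these markers in the lower levels of the spliceosome genes was not tested.

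In the 3 co-treatments members were higher than in CC-cont. TSA with RK-701 gave 16 higher and 0 lower, where 9.63% of all genes were called (6.39% higher, 3.24% lower). TSA with A366 gave 15 higher and 0 lower, where 9.2% were called (5.76% higher, 3.45% lower). TSA with UNC0638 gave 18 higher and 0 lower, where 8.97% were called (5.9% higher, 3.07% lower). The tests are edgeR's. At an unadjusted p under 0.05 the counts were 27 higher and 2 lower, 24 and 3, and 26 and 2. DESeq2 called 18 higher and 0 lower, 19 and 1, and 20 and 2. Median log2 fold changes of the members were 0.40, 0.29 and 0.26, against -0.11, -0.12 and -0.08 over all genes. With a fold over 2 also required, 7, 2 and 4 members were called, against 6.17%, 5.99% and 6.18% of all genes. These comparisons share the 2 CC-cont libraries, whose correlation of log2 levels, 0.941, was the lowest of any 2 replicates. Most of the calls were lost in fits of the compared libraries alone. Without replicate 2 of CC-cont, 8, 7 and 2 members were called.

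Snrpa1 had the largest called change with RK-701 or A366 beside TSA. It stood at 122 and 119 CPM in CC-cont, 365 and 419 with TSA and RK-701, 377 and 333 with TSA and A366, and 274 and 186 with TSA and UNC0638. Of these 6 libraries all but the one at 186 lay above every IVF library. Its log2 fold changes were 1.70 ± 0.21 (edgeR adjusted p = 3.5e-05), 1.56 ± 0.21 (6.2e-05) and 0.93 ± 0.21 (0.0051). Snrpb2, its partner on U2, was called in all 3 co-treatments, at 0.87, 0.80 and 0.61.

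Sf3b6 was read at 223 and 192 CPM in CC-cont and at 459 and 560, 545 and 506, and 510 and 478 in the co-treatments, above the 296 to 386 of IVF. With log2 fold changes of 1.29 ± 0.20, 1.34 ± 0.20 and 1.25 ± 0.20, it was still called in all 3 co-treatments without replicate 2 of CC-cont and in a fit of the compared libraries alone. Sf3b5, a small subunit of the same complex, was called in each at 0.85, 0.83 and 0.79. Sf3b1, the largest SF3B subunit, stood at 384 and 341 CPM in CC-cont and at 426 to 521 in the 6 co-treated libraries and was not called.

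Among the Sm genes, Snrpe rose from 225 and 202 CPM to 411 and 480, to 429 and 392 and to 376 and 370 (1.06 ± 0.18, 0.94 ± 0.18 and 0.80 ± 0.18), and Snrpd1 from 212 and 201 CPM to 392 and 471, to 413 and 390 and to 348 and 300. Snrpg was also called in all 3, at 0.55, 0.64 and 0.61. Of the LSm genes, Lsm8 was called in each: it was at 149 and 122 CPM in CC-cont and at 217 to 326 in the co-treated libraries (1.12 ± 0.20, 0.87 ± 0.20 and 0.81 ± 0.20). Lsm10 was called with UNC0638 alone of the 3 (0.97 ± 0.25, edgeR adjusted p = 0.014), at 120 and 84.3 CPM against 64.5 and 39.2. No U2AF gene was called.

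Srsf5 was read at 895 and 477 CPM in CC-cont and at 1372 and 1501, 1273 and 1304, and 1473 and 1339 in the co-treatments (1.07 ± 0.24, 0.91 ± 0.24 and 1.04 ± 0.24). All 6 lay above every IVF library. Srsf1 was called with RK-701 and with A366 beside TSA, at 0.65 and 0.79. The remaining 9 SR genes were not called.

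Within the PRPF genes, Prpf38a rose from 322 and 171 CPM to 545 and 529, to 484 and 441 and to 572 and 510, and Prpf18 from 76.4 and 48.8 CPM to 101 and 120, to 92.8 and 104 and to 106 and 99.3. Prpf3, a protein of the U4/U6 particle, was at 74.5 and 39.3 CPM in CC-cont, 107 and 97.5 and 102 and 102 with RK-701 and A366, and 147 and 141 with UNC0638 (1.34 ± 0.24, edgeR adjusted p = 0.00075). Its partner Prpf4 was called with A366 and UNC0638, at 0.59 and 0.70.

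**Figure D3:**
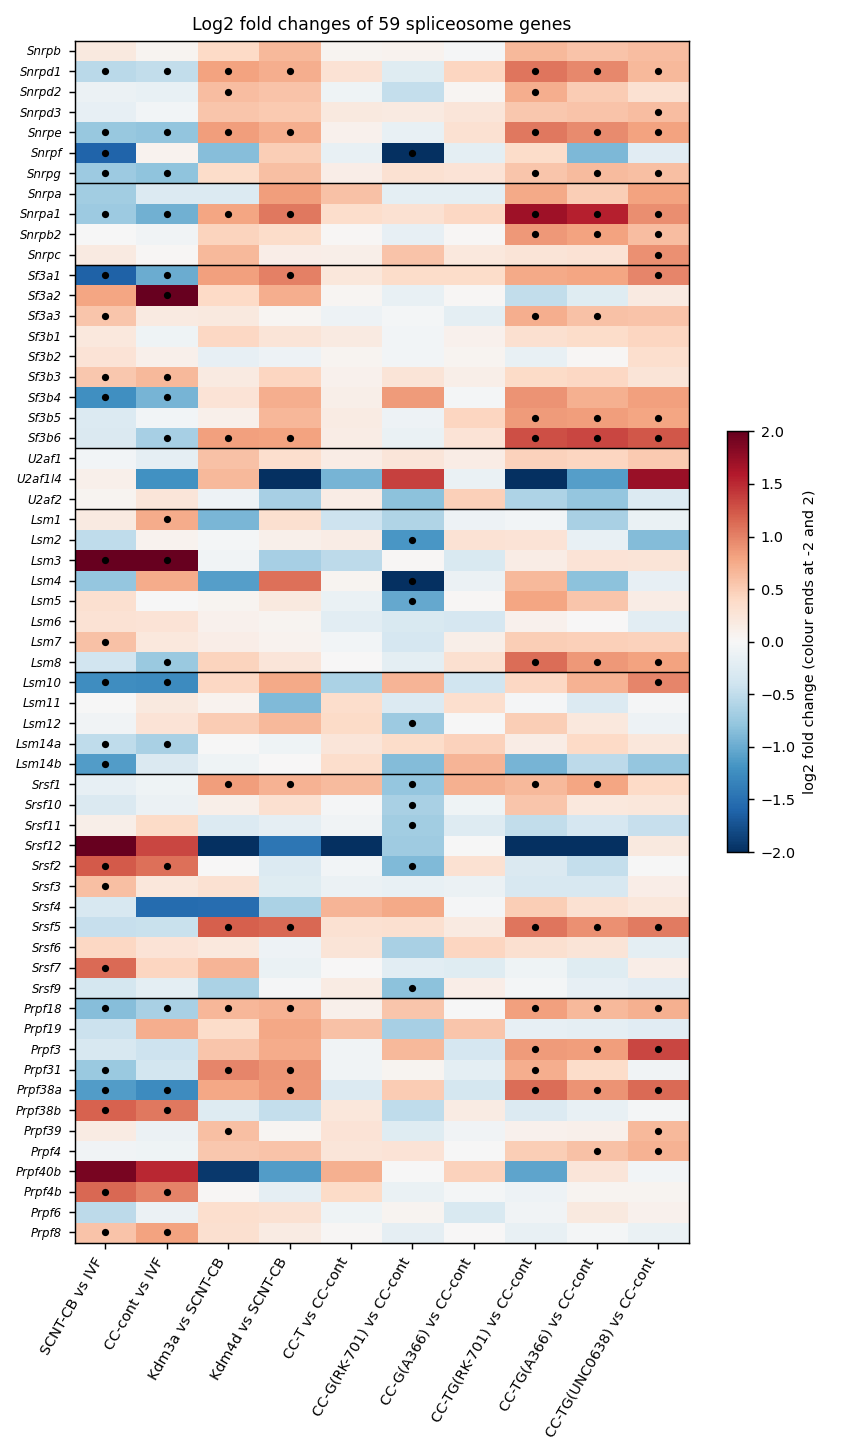
Log2 fold changes of 59 of the 60 spliceosome genes (rows, grouped by role with black lines: Sm, U1 and U2, SF3A and SF3B, U2AF, LSm of U6 and decay, other LSm, SR, PRPF) in 10 comparisons (columns), red for higher and blue for lower, with a dot where the edgeR call was made. The dots in the Kdm and CC-TG columns are all on red cells, and the 10 dots of the CC-G(RK-701) column are all on blue cells, while the CC-T and CC-G(A366) columns have none.

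How much of this rests on the scaling was examined, because the TMM factors ran from 0.883 to 0.961 in the IVF, Kdm and co-treated libraries and from 1.06 to 1.16 in the controls, CC-T and CC-G. By library size alone, an alternative chosen after seeing the data, the members' median log2 fold change became 0.04 with Kdm3a, 0.04 with Kdm4d and 0.10, 0.03 and -0.01 in the co-treatments with RK-701, A366 and UNC0638. A change of scaling moves every gene by nearly the same step, so the median over all genes went to -0.33, -0.31, -0.40, -0.39 and -0.35, and the members' distance from it, 0.37, 0.35, 0.51, 0.42 and 0.34, is fixed by construction and says nothing of how the results depend on the scaling. The number called then was 2 higher and 2 lower with Kdm3a, 2 and 2 with Kdm4d, 8 and 4, 5 and 1, and 7 and 3. Srsf5 was still called with both mRNAs, and Snrpa1, Sf3b6 and Snrpe in all 3 co-treatments. With RK-701 alone 11 members were called lower and the median was -0.18.

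**Figure D4:**
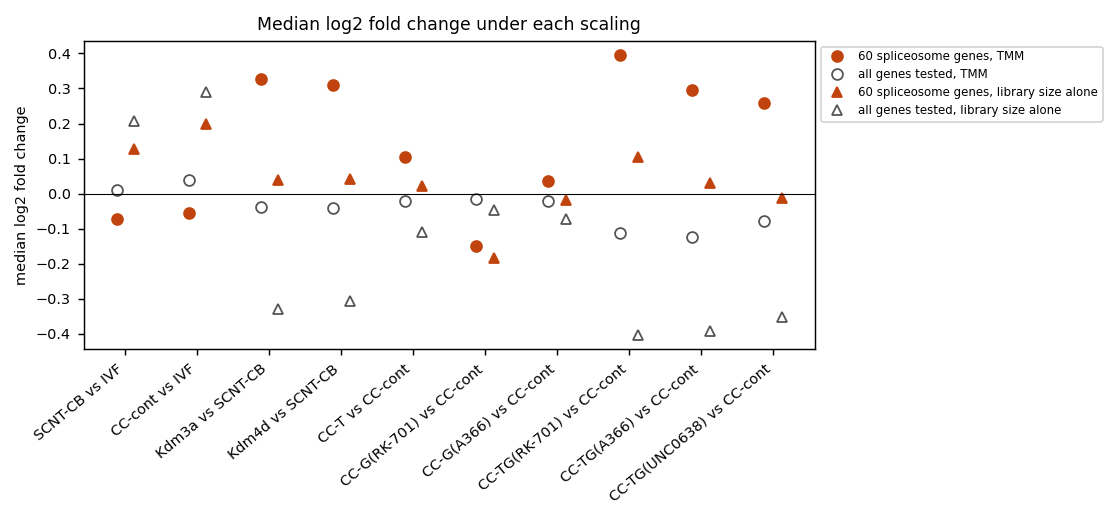
Median log2 fold change of the 60 spliceosome genes (orange) and of all 25794 genes tested (grey, open) in 10 comparisons, with TMM factors (circles) and by library size alone (triangles). Both medians of the Kdm and CC-TG comparisons are lower by library size alone, and the gap between them is the same by construction.

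The G9a inhibitors were compared with one another at the same dose and time, 1 µM for 24 h, in 4 pairs. Given alone, A366 and RK-701 differed in 20 members, 16 higher and 4 lower with A366 (edgeR), where 12.9% of all genes differed (6.83% higher and 6.09% lower), and in 17 (14 higher, 3 lower) after adjustment over the 4 pairs together. With a fold over 2 also required, 11 members differed, against 8.08% of all genes. Srsf1 was at 637 and 733 CPM with A366 and at 204, 289 and 242 with RK-701 (1.48 ± 0.17, adjusted p = 2.8e-06 by edgeR), and Srsf2 at 388 and 340 against 148, 187 and 145 (1.19 ± 0.17). Lsm10 went the other way, with 36.5 and 42.1 CPM against 80.6, 87.0 and 83.6 (-1.09 ± 0.24), as did Prpf38a, with 207 and 181 against 329, 359 and 366.5. Beside TSA, A366 and RK-701 differed in 0 members (edgeR; 2 lower with A366 at an unadjusted p under 0.05; 0 by DESeq2, and 0 after adjustment over the 4 pairs together), where 0% of all genes differed. That pair's 95% intervals were -0.35 to 0.44 for Sf3b6 and -0.46 to 0.22 for Snrpe on the log2 scale, so changes within them remain possible. UNC0638 and RK-701 beside TSA differed in 1 member, where 1.21% of all genes did (0.779% higher and 0.43% lower; 7 members higher and 9 lower at an unadjusted p under 0.05, 2 and 4 by DESeq2, and 0 and 2 after adjustment over the 4 pairs together): Lsm2 was at 30.1 and 23.1 CPM with UNC0638 and at 43.7 and 74.0 with RK-701 (-1.15 ± 0.29, edgeR adjusted p = 0.049). UNC0638 and A366 beside TSA differed in 0 members (edgeR; 5 higher and 3 lower at an unadjusted p under 0.05; 1 and 1 by DESeq2, and 0 after adjustment over the 4 pairs together), where 1.02% of all genes did (0.822% and 0.194%).

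Whether TSA and RK-701 together did what their separate changes add up to was tested as an interaction over CC-cont, CC-T, CC-G(RK-701) and CC-TG(RK-701). In 11 members the joint change exceeded the sum and in 0 it fell short (edgeR; 23 and 1 at an unadjusted p under 0.05; 17 and 0 by DESeq2), where 2.3% of all genes were called (1.54% above the sum and 0.764% below). These were 4 of the 7 Sm genes, 3 genes of the U6 and decay rings, Snrpa1 and Snrpb2 of U2, Sf3b6 and Srsf10. Lsm5 was at 17.4 and 23.2 CPM in CC-cont, 18.1 and 18.7 with TSA, 9.39, 11.8 and 8.67 with RK-701 and 34.9 and 35.3 with both (interaction 1.96 ± 0.36 on the log2 scale, edgeR adjusted p = 0.0067). Snrpd2 was at 111 and 88.7, 88.0 and 100, 65.8, 84.5 and 66.5, and 150 and 182 CPM in the same order (1.29 ± 0.25, adjusted p = 0.0086). With A366 the interaction was called in 2 members, where 1.88% of all genes were called (1.31% above and 0.57% below): Lsm10 (1.74 ± 0.36, edgeR adjusted p = 0.015) and Prpf38a (1.52 ± 0.34, adjusted p = 0.023). No interaction call with RK-701 was left without replicate 2 of CC-TG(RK-701), and 1 was left without replicate 1 of CC-T.

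Against IVF, treated clones differed in members of both kinds. With Kdm3a 24 members were higher and 9 lower, where 10.4% of all genes tested were higher and 8.8% lower (19.2% in all). With Kdm4d 18 were higher and 2 lower, against 8.23% and 6.21% (14.4%). In the co-treatment with RK-701, 24 were higher and 3 lower, against 10.4% and 8.06% (18.5%). With TSA and A366 the counts were 19 and 0, against 9.13% and 7.22% (16.4%; edgeR, with 25 higher and 2 lower at an unadjusted p under 0.05 and 19 and 1 by DESeq2). With TSA and UNC0638 they were 20 and 2, against 8.82% and 6.14% (15%). CC-T had 11 and 10, against 11.5% and 10.2% (21.7%), CC-G(A366) 11 and 9, against 11.7% and 10.4% (22.1%), and CC-G(RK-701) 7 and 18, against 9.77% and 9.6% (19.4%). With a fold over 2 also required, members called numbered 8 with Kdm3a, 3 with Kdm4d, 8 with TSA, 8 with RK-701, 7 with A366 and 5, 4 and 5 in the co-treatments, against 12.8%, 9.29%, 14.9%, 11.8%, 15.2%, 12.2%, 10.9% and 9.84% of all genes. Lsm3, Prpf4b, Prpf8, Prpf38b and Sf3b3 were called higher than IVF in both controls and in all 8 treated groups. For Lsm3 the 8 log2 fold changes ran from 1.88 ± 0.22 in CC-T to 2.76 ± 0.22 in Kdm3a. The IVF libraries are shared by all of these comparisons.

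Some members went past the level of IVF. Srsf5, Sf3b6 and Srsf1 were not higher in either control and were called higher than IVF with Kdm3a, with Kdm4d and with TSA and RK-701. For Srsf5 the log2 fold changes were 0.74 ± 0.20, 0.68 ± 0.20 and 0.63 ± 0.20. Lsm14a stayed below IVF, with 379 to 446 CPM in the Kdm and TSA with RK-701 libraries against 547 to 620, and was not called with TSA and A366 (478 and 512 CPM). Srsf7 stood at 1381 and 1074 CPM with Kdm3a, 702 and 693 with Kdm4d and 319 to 587 in the co-treatments, against 294 to 395 in IVF.

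Related genes did not share one level. Lsm14a was at 394 TPM and Lsm14b at 22.9, Srsf10 at 219 and Srsf12 at 0.42, U2af1 at 289 and U2af1l4 at 0.36, and Srsf6 at 63.4 and Srsf4 at 1.57. The levels of U2af1l4 and Srsf4 are understated, since most of their exon bases are shared with other genes. Prpf38a and Prpf38b were closer, at 212 and 154 TPM, as were Snrpa and Snrpb2, at 260 and 154. In the clone controls Prpf38a was lower and Prpf38b higher than in IVF, and in the co-treatments Prpf38a was called and Prpf38b, at 155 to 196 CPM against 192 and 204 in CC-cont, was not. Of Srsf3 and Srsf7 both were called higher in SCNT-CB than in IVF, at 153 and 494 TPM over all libraries. Srsf1, at 270 TPM, and Srsf9, at 54.2, both fell with RK-701, and in the Kdm groups Srsf1 was called and Srsf9 was not. Prpf4b, a kinase, and Prpf4, the partner of Prpf3, are alike in symbol but are not paralogs. Prpf4b, at 93.4 TPM, was higher in both controls than in IVF, while Prpf4, at 53.0, was not called there.

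Other splicing genes, from lists outside the naming rule, were read beside the members. Their counts stand against the shares of all genes called higher and lower: 4.21% and 1.94% with Kdm3a, 3.88% and 1.27% with Kdm4d, 2.68% and 2.8% with RK-701 alone, and 6.39% and 3.24%, 5.76% and 3.45%, and 5.9% and 3.07% in the co-treatments with RK-701, A366 and UNC0638. In lists of 6 or 8 genes a single call is a larger share than any of these. Of 40 further spliceosome proteins, 9 were higher and 1 lower with Kdm3a, 6 and 0 with Kdm4d, 14 and 0, 11 and 0, and 12 and 0 in the co-treatments with RK-701, A366 and UNC0638, and 3 and 2 with RK-701 alone. Slu7, which selects the end of the intron in the second step, rose by 0.98 ± 0.24 and 1.21 ± 0.24 on the log2 scale with the 2 mRNAs and by 1.22, 1.28 and 1.25 in the co-treatments. Of 14 tested genes of the SMN and PRMT5 complexes, which methylate Sm proteins and load them onto RNA, 5 were higher with Kdm3a, 3 with Kdm4d and 7, 8 and 7 in the co-treatments, with none lower by edgeR, whereas 2 were lower with RK-701 alone. Among them, Clns1a, which hands Sm proteins to PRMT5, rose by 1.41 ± 0.24, 1.38 ± 0.24 and 0.95 ± 0.24 in the co-treatments. The 8 genes of the exon junction complex had 2 and 3 higher with the mRNAs and 3, 2 and 2 in the co-treatments, where Acin1 was lower with UNC0638 (-0.87 ± 0.24). Of 23 hnRNP genes, 7 were lower and 1 higher with RK-701 alone, led by Hnrnpl (-1.62 ± 0.23, edgeR adjusted p = 0.00019), and 5, 4 and 3 were higher in the co-treatments, with 1 lower with TSA and RK-701. The 8 proteins of the minor spliceosome had 2 and 3 higher with the mRNAs and 2, 2 and 1 in the co-treatments, among them Snrnp35, and of the 6 SR protein kinases Srpk1 alone was called there.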

How the data were processed

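RNA was sequenced as paired reads from 25 libraries in 11 groups, each library a pool of embryos. The authors trimmed the reads (Trimmomatic), mapped unique pairs to mm10 (STAR) and counted pairs on exons without regard to strand (featureCounts), leaving out pairs on more than 1 feature. The deposited table holds raw counts for 55375 genes and 1755056 transposable element copies. Every library column was used (0 were left out).

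From these counts, the genes were fitted in edgeR 4.0.16 (R 4.3.3, limma 3.58.1) with TMM factors and its quasi-likelihood test, in one model over the 25 libraries with a term for each group. The 25794 genes on autosomes that averaged 1 read or more were tested, since IVF embryos are of both sexes and clones female. A call is a Benjamini-Hochberg adjusted p under 0.05 over all of these, at any fold. SE is the size of the log2 fold change divided by the square root of the test's F statistic. The 95% intervals are the normal ones from it, somewhat narrower than the test's own degrees of freedom would give. CPM uses the TMM factors and compares libraries, whereas TPM divides by exon length and compares genes. DESeq2 1.42.0, other scalings, filters and sample sets were tried as alternatives. In simulated data for Kdm4d against SCNT-CB (25794 genes), 70 genes were changed by 1.5-fold, 70 by 2-fold and 60 by 4-fold. All were well read and none was a member. Of these, 1.43%, 27.1% and 95.0% were recovered. The data had 1328 genes called there, so the p-value needed for a call was less strict than in the simulation. These shares therefore need not hold for the data, where smaller changes can still be missed.

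Replicates differed by more than sampling noise in every group (chi-square over degrees of freedom 6.94 to 66.9). The labels do not tie replicates to separate days or females, so p-values measure the spread between these libraries. Replicate numbers did not pair libraries: over 111 pairs with the same number the correlation of deviations ran from -0.398 to 0.212, and 9 exceeded 0.1. The genes and lists were chosen with earlier results of these data known. Genes were named by rule: the highest 2 in TPM of each role, up to 4 called members in each direction by size with at least 10 reads in every library of the higher group, the 6 called in most of 10 comparisons, paralogs, and members with a library standing apart. Further members, and the genes named from the other lists, were chosen after their values were seen. Of the 60 members, 1 is counted in all totals but not reported here by itself.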

Additional observations from a re-analysis of the deposited data

Results flagged for a closer look

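A single IVF library stood apart from the other 3 in 3 of the 60 members by Dixon's criterion. Chance alone meets it in about 1 of 20 groups, so this number is about what chance would give. Lsm7, a subunit of the U6 and decay rings, was at 64.3 CPM in replicate 3 against 50.6 to 52.6 in the others. Prpf6, which bridges the U5 and U4/U6 particles, was at 35.3 CPM in replicate 2 against 42.9 to 44.3. Snrpa1 was at 190 CPM in replicate 2 against 247 to 255.

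The change with RK-701 differed between embryos with and without TSA in 11 members, by edgeR's test of the interaction, all towards a higher level with both agents than the separate changes add up to. On the log2 scale the interaction was 2.89 for Lsm4, 2.60 for Snrpf, 1.96 for Lsm5, 1.31 for Lsm8, 1.29 for Snrpd2, 1.28 for Sf3b6, 1.23 for Srsf10, 1.12 for Snrpe, 1.05 for Snrpa1, 1.02 for Snrpd1 and 1.01 for Snrpb2. Lsm4, Snrpf, Lsm5 and Srsf10, which were called lower with RK-701 alone, were not called with both agents against CC-cont. Their log2 fold changes there were 0.64, 0.36, 0.79 and 0.56. For A366 the interaction was 1.74 for Lsm10 and 1.52 for Prpf38a.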

How the results depend on the processing

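None of the 125 single-gene test results changed direction in the alternatives run for it. These refit the same counts for results already called, so a kept direction says little. Of the 125, 70 lost their call in fits of the compared libraries alone, 55 by library size alone and 0 with DESeq2. In addition, 4 TPM values of Sf3b6 and Srsf5 moved when TPM was taken over all genes. Numbers of members called that moved by over 1.5 times, and medians (log2) that moved beyond the spread between replicates, were as follows, and the cause was not tested. DESeq2 called 1 with TSA, 17 with RK-701 and 1 with A366, 6 between UNC0638 and RK-701 and 2 between UNC0638 and A366 beside TSA, 17 and 10 for the interactions with RK-701 and A366, and gave a Kdm4d median of 0.24. RLE factors gave 7 with Kdm3a and a Kdm4d median of 0.24. Against both untreated controls, 22 were called with Kdm3a, 2 with TSA, 18 with RK-701, 1 with A366 and 25 with TSA and RK-701, with medians of 0.23 for Kdm4d and 0.11 for A366. Requiring a fold over 2 left 11 and 6 for SCNT-CB and CC-cont against IVF, 1 and 3 with Kdm3a and Kdm4d, 4 with RK-701, 7, 2 and 4 in the co-treatments, 11 between A366 and RK-701, and, against IVF, 8 for Kdm3a, 3 for Kdm4d, 8 for TSA, 8 for RK-701, 7 for A366 and 5, 4 and 5 for the co-treatments. Library size alone, added after seeing the data, gave 4 with Kdm3a, 4 with Kdm4d, 6 and 10 in the co-treatments with A366 and UNC0638, and 0 between UNC0638 and RK-701, with medians of 0.13 and 0.20 for SCNT-CB and CC-cont against IVF, 0.038 for Kdm3a, 0.041 for Kdm4d, 0.022 for TSA and 0.10, 0.031 and -0.012 for the co-treatments. Without a filter on low counts, 1 was called with A366, 2 between UNC0638 and RK-701 and 5 for the interaction with A366. Fits of the compared libraries alone called 5 with Kdm3a, 6 with Kdm4d, 1 with RK-701, 3, 2 and 2 in the co-treatments, 1, 4 and 3 between the inhibitor pairs beside TSA, and 2 and 0 for the interactions. With the replicate number as a block, although the numbers did not pair the libraries, 7 were called with Kdm3a, 20 and 12 for Kdm3a and Kdm4d against IVF, 0 between UNC0638 and RK-701 and 1 for the interaction with A366.

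Leaving out each replicate in turn, the number called ran from 13 to 25 for SCNT-CB and 15 to 22 for CC-cont against IVF, 0 to 11 with Kdm3a, 0 to 13 with Kdm4d, 0 to 6 with TSA, 3 to 18 with RK-701, 0 to 5 with A366, and 6 to 16, 5 to 16 and 2 to 20 in the co-treatments. Against IVF it ran from 15 to 29 for Kdm3a, 9 to 18 for Kdm4d, 9 to 21 for TSA, 20 to 25 for RK-701, 12 to 23 for A366, and 10 to 26, 8 to 18 and 11 to 19 for the co-treatments. It ran from 0 to 1 between the controls, 8 to 18 between A366 and RK-701, 0 to 1 between UNC0638 and RK-701, and 0 to 14 and 0 to 12 for the interactions. Medians ran from -0.23 to -0.0040 and -0.16 to 0.0019 for the controls against IVF, 0.16 to 0.44 with Kdm3a, 0.22 to 0.43 with Kdm4d, -0.046 to 0.17 with TSA, -0.17 to -0.0060 with RK-701, -0.016 to 0.16 with A366, and 0.34 to 0.58, 0.33 to 0.43 and 0.31 to 0.51 in the co-treatments. A lone library left in a group is assumed there to vary like the others.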
